A study of Mus musculus with 16 samples.

Results

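Complement genes were followed in mouse subchondral bone, the plate of bone and marrow space under joint cartilage, after knee surgery. The set held 9 genes: the C1q subunits C1qa, C1qb and C1qc, the cascade components C2, C4b, C3 and Cfb, and the receptors C3ar1 and C5ar1. Every probe that the array files label with 1 of these gene names was taken, which gave 13 probes of 56605 and 9 genes of 37008 gene names. Probes were matched by name and not by level, and the 9 genes were chosen with earlier results of these data known.

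Bone came from male wild-type C57BL6 mice that were 10 to 12 weeks old at surgery. In the DMM groups the ligament that anchors the medial meniscus to the tibia was cut (destabilization of the medial meniscus, a mouse model of post-traumatic osteoarthritis). In the sham groups it was exposed and left whole. Both knees of a mouse had the same operation. The 4 groups were DMM at 1 week, sham at 1 week, DMM at 6 weeks and sham at 6 weeks, with 4 arrays each and 1 joint of 1 mouse per array. Decalcified medial tibial plateaus were cut into 10 µm cryosections, bone was taken by laser microdissection, sections of a joint were pooled, and 100 ng of RNA was hybridised in 1 colour (Cy3). A level below is the log2 intensity of a probe minus the 75th percentile of its array, so 0 is the brightness of that percentile, and each step of 1 is a doubling. Levels of different probes are not compared, because probes differ in brightness for the same amount of RNA.

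Complement is a cascade of plasma and tissue proteins that marks cells and debris for uptake. C1q binds antibody complexes and dying cells and, with C1r and C1s, cleaves C4 and C2 into an enzyme that cleaves C3. Factor B builds a second C3-cleaving enzyme, which amplifies the cascade, and the fragments C3a and C5a call in myeloid cells through C3ar1 and C5ar1. The liver makes most plasma complement, whereas tissue macrophages make C1q, and myeloid cells carry the fragment receptors.

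The 75th percentile of signal lay between 329 and 873 on single arrays, where the share of probes well above background lay between 65.1% and 79.5%. Replicate 2 of the 6-week sham group stood apart. Its percentile was 329 against at least 471 elsewhere, and it lay at 176.5 on the first principal component, where the others lay between -69.6 and 71.7. Member differences below, from the brightest probe of each gene, that moved by over 1.5 times without it are given both ways. Differences from second probes are given with all arrays only. All 8 osteoblast and osteocyte, 7 osteoclast and 5 erythroid genes passed the filter on dim probes. So did all 5 chondrocyte, 5 fat-cell and 4 skeletal muscle genes and 3 of 5 liver-cell genes, so the filter does not set bone apart from its neighbours. The mean of the muscle genes lay between -1.25 and 2.86 around its 16-array mean on single arrays.

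All 13 probes passed the filter, which keeps a probe if 4 or more arrays of the 16 have it well above background. The second C1qc probe reached that on 4 arrays, replicate 1 of each group, and is not used further. The other 12 did so on 15 or 16 arrays. No probe was saturated. All 9 genes lie on the minus strand in mm9, the mouse build of the array files. The C1q genes sit side by side on chromosome 4, and C4b, C2 and Cfb lie close together on chromosome 17, where C3 has a place of its own.

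The probes below show stretches of 5 of the transcripts. For C1qa and C1qb they are the probes behind all values given, whereas for C3, C4b and Cfb they are the second probes, used only to check the main probe, whose sequence is not shown. Each sequence is printed as the array files give it, in lower case throughout. They come from chr4:136452409-136452468 for C1qa, chr4:136436578-136436637 for C1qb and chr17:57343678-57343737 for C3. For C4b the second probe comes from chr17:34866361-34866420, and for Cfb from chr17:34994617-34994676. This second C4b probe is also annotated to the transcript of C4a, a near-copy of C4b, so its signal cannot be assigned to 1 of the 2 genes.
C1qa: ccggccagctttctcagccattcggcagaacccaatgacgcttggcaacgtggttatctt
C1qb: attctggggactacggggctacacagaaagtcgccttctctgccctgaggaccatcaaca
C3 (second probe): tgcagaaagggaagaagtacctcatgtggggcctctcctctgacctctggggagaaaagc
C4b (second probe): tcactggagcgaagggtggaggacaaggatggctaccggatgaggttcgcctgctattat
Cfb (second probe): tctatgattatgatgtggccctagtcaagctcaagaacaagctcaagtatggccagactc

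C1qa, C1qb and C1qc encode the 3 chains of C1q, the recognition protein of the classical pathway. Their levels spread widely between mice within a group, and DMM and sham did not differ beyond that spread at either time. The widest spread was in DMM at 1 week, where replicate 2 was the lowest of all 16 arrays for all 3 chains. Replicate 1 of DMM at 6 weeks was the highest of all 16 for all 3.

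C1qc had levels of 3.61, 1.79, 3.30 and 3.33 in DMM at 1 week, and 3.56, 2.98, 3.53 and 3.16 in sham. At 6 weeks it had 4.08, 3.57, 3.35 and 3.45 in DMM and 3.65, 2.84, 3.58 and 3.40 in sham. The DMM and sham values overlapped at both times. DMM minus sham was -0.30 ± 0.34 (SE) at 1 week and 0.25 ± 0.34 at 6 weeks (limma, adjusted p = 1 and 0.9995, n = 4 each). Without DMM replicate 2 the 1-week difference was 0.10, so its sign rested on that array. The 6-week difference was 0.069 without sham replicate 2 and 0.090 without DMM replicate 1.

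C1qa had levels of 2.16, 0.23, 1.77 and 1.71 in DMM at 1 week, and 1.63, 1.19, 1.69 and 1.65 in sham. Leaving the low DMM array aside, the other DMM levels lay above all 4 sham levels. At 6 weeks C1qa had 2.60, 2.14, 1.47 and 1.79 in DMM, and 1.99, 0.64, 1.97 and 1.90 in sham. The C1qa difference between DMM and sham was -0.072 ± 0.40 at 1 week (95% interval -0.92 to 0.77) and 0.38 ± 0.40 at 6 weeks (-0.47 to 1.22). The 6-week value was 0.047 without sham replicate 2 and 0.18 without DMM replicate 1, and the 1-week value was 0.34 without DMM replicate 2.

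C1qb had levels of 2.45, 1.05, 2.01 and 2.01 in DMM at 1 week, and 2.03, 1.77, 1.99 and 1.94 in sham. At 6 weeks it had 2.80, 2.42, 1.96 and 2.25 in DMM, and 2.38, 2.21, 2.17 and 2.17 in sham. Both DMM ranges enclosed the sham range of their time. For C1qb, DMM minus sham was -0.055 ± 0.25 at 1 week and 0.12 ± 0.25 at 6 weeks. Replicate 2 of the 6-week sham group, low for C1qa and C1qc, was at 2.21 for C1qb, inside the range of the other sham arrays.

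**Figure D1:**
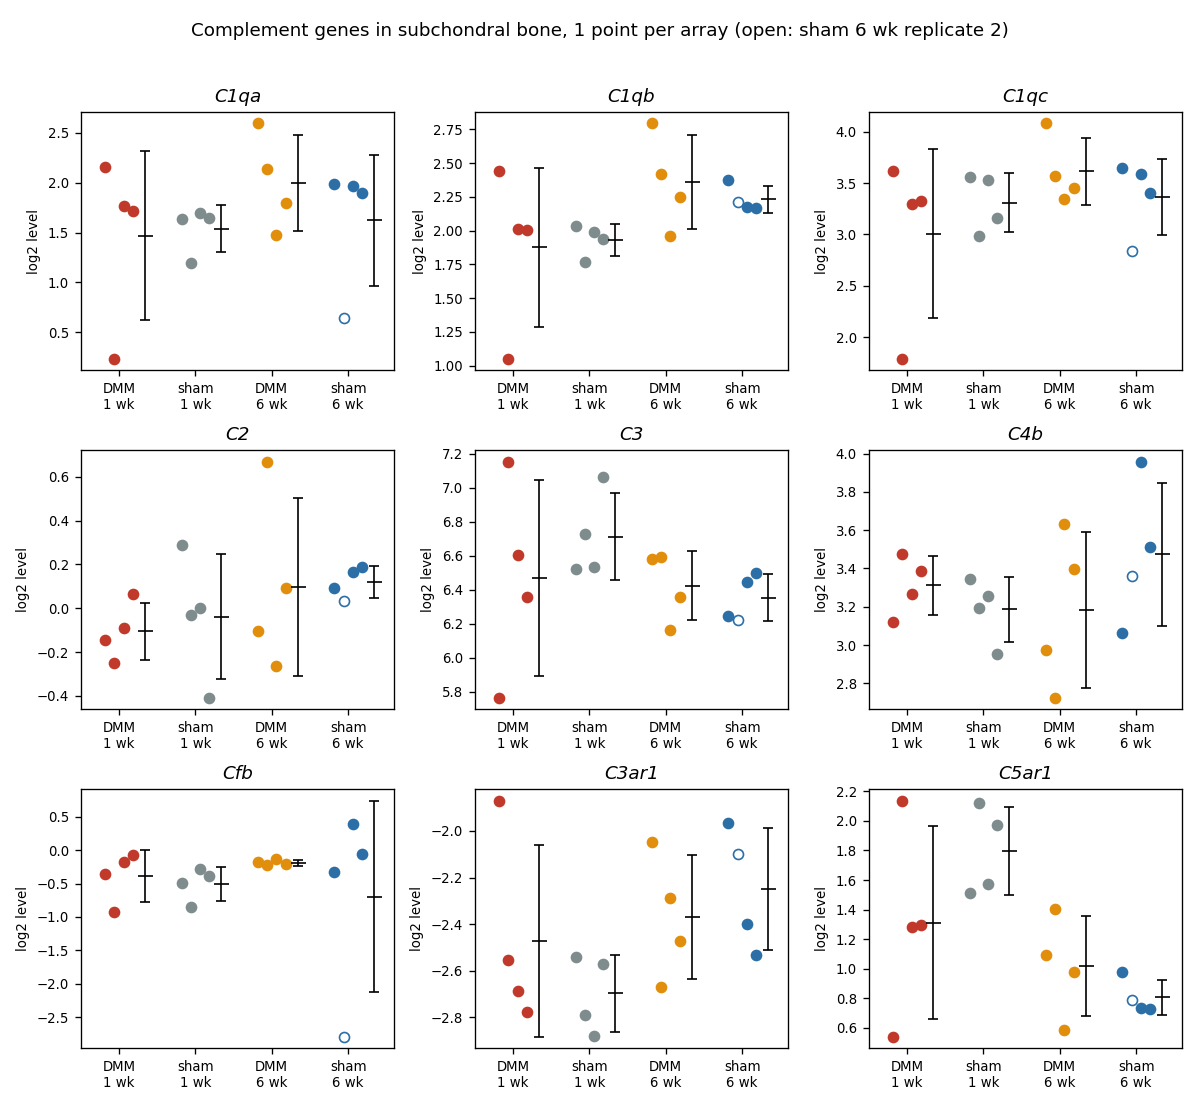
Log2 levels (log2 intensity minus the array's 75th percentile, vertical axes with a range of their own) of the 9 complement genes on 16 arrays, 4 per group, with the mean and SD as bars beside the points. Open points are replicate 2 of sham at 6 weeks, which lies at -2.79 for Cfb; DMM and sham overlap in every panel at each time.

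The 3 chains varied together from mouse to mouse. Over the 16 arrays, Pearson's r was 0.934 for C1qa with C1qc, 0.885 for C1qb with C1qc and 0.823 for C1qa with C1qb, and Spearman's rho was 0.856, 0.768 and 0.818. These are descriptions of arrays that share 1 scaling each, with no test. Without replicate 2 of sham at 6 weeks r was 0.953, 0.942 and 0.980. After group means were removed, r stayed at 0.945, 0.895 and 0.830 over 16 arrays. When the 2 arrays farthest from the median of the first gene were left out, r was 0.883 for C1qa with C1qc, 0.957 for C1qa with C1qb and 0.529 for C1qb with C1qc. On the first slide r was 0.948 for C1qa with C1qc, 0.926 for C1qb with C1qc and 0.859 for C1qa with C1qb. In the same order it was 0.512, 0.586 and 0.75 on the second slide, which holds neither extreme array.

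**Figure D2:**
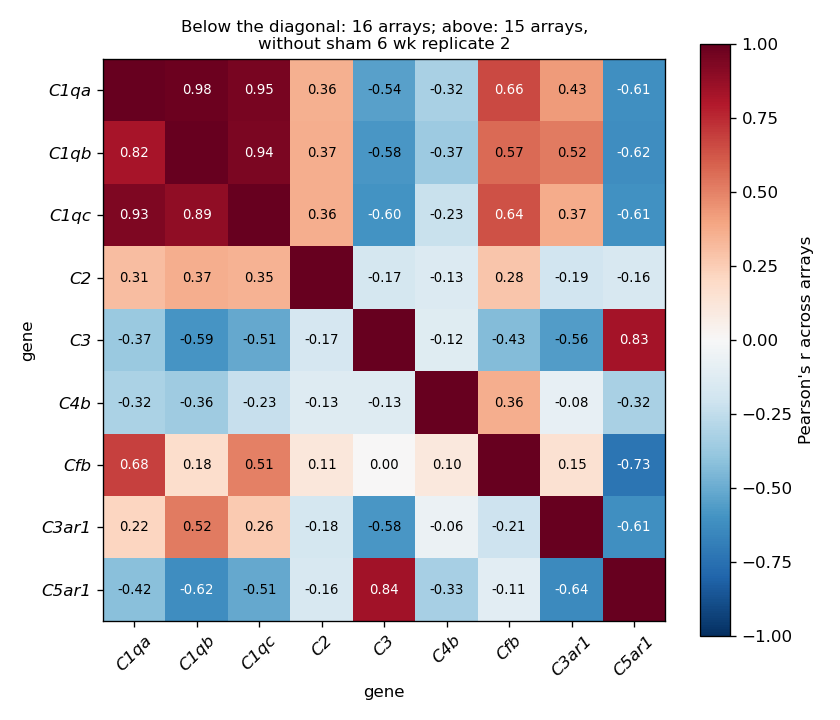
Pearson's r between the levels of each pair of complement genes, over 16 arrays below the diagonal and over 15 arrays (without replicate 2 of sham at 6 weeks) above it. The C1q chains form 1 block with r of at least 0.823, and C3 with C5ar1 (0.842) is the other high pair.

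Of all 28250 genes tested, those whose levels ran closest to the mean of the 3 chains over 16 arrays were Spic (r = 0.945), Mertk (0.945), Vcam1 (0.942), Cyb5r3 (0.929) and Gm5547 (0.927). Spic is a transcription factor of red pulp and marrow macrophages that recycle iron, Mertk is a receptor by which macrophages take up dying cells, and Vcam1 is an adhesion protein of those macrophages and of stromal cells. On 15 arrays the nearest were Axl (0.965), a receptor of the same family as Mertk, Spic (0.956), Gm5547 (0.947), Gdpd1 (0.942) and Mertk (0.941). Spic stood at 0.53, -1.78, 0.45 and 0.52 in DMM at 1 week and at -0.15 to 0.59 in sham, and thus was lowest on the same array as the C1q chains. Mertk was lowest there too, at -2.48, against -0.11, -0.78 and -0.69 in the other DMM joints and -0.96 to -0.66 in sham.

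A list of 15 macrophage markers (among them Adgre1, Cd68, Csf1r, Mrc1, Siglec1 and Cd5l), all past the filter, varied with C1q. In replicate 2 of DMM at 1 week 14 of the 15 were below their own 16-array mean, and 10 had their lowest level of all there. The log2 of the summed list ranged from 6.46 to 7.42 in DMM and 7.13 to 7.32 in sham at 1 week, and from 6.92 to 7.55 in DMM and 6.79 to 7.32 in sham at 6 weeks. The mean of the 3 C1q chains had r = 0.845 (rho = 0.676) with the mean of this list over 16 arrays, 0.589 without the 2 arrays farthest from the list's median, 0.912 on the first slide and 0.229 on the second. Spic, Mertk, Vcam1 and Axl belong to the list. For this and the other lists the summed level is another measure than the mean, because brighter probes weigh more in the sum. Each r with a list was taken with its mean.

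Erythroid markers (among them Alas2, Epb42, Ahsp and Klf1, 5 of 5 past the filter) varied with C1q as well, with r = 0.827 (rho = 0.75) over 16 arrays and 0.676 without the 2 farthest. Within slides r was 0.898 on the first and 0.751 on the second. All 5 were lowest in replicate 2 of DMM at 1 week. Their summed log2 level ranged from 4.98 to 7.55 in DMM and 5.63 to 7.16 in sham at 1 week, and from 7.48 to 8.45 in DMM and 6.12 to 8.03 in sham at 6 weeks. Whether the share of macrophages or of marrow in a dissected sample sets the C1q level was not tested, and in bulk RNA fewer cells of a type and less RNA per cell cannot be told apart.

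To show what lies upstream of chains that vary together, the 250 bases before the transcription start are given for C1qb and C1qc, the C1q genes for which RefSeq sequence on GRCm38.p6 was at hand (minus strand, chr4:136886201-136886450 and chr4:136892915-136893164, a build other than that of the probes). The same is given below for C3 and C5ar1. Capitals mark matches on either strand to 5 motifs: the PU.1 core GAGGAA, the MAF half-site TGCTGA, the C/EBP motif TTNNGNAA, the interferon-gamma GAS motif TTCNNNGAA and the kappa-B motif.
C1qb: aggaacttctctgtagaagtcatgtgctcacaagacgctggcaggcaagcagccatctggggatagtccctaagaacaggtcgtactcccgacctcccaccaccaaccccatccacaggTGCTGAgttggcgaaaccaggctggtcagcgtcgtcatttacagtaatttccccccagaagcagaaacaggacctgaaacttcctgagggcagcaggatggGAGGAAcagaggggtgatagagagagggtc
C1qc: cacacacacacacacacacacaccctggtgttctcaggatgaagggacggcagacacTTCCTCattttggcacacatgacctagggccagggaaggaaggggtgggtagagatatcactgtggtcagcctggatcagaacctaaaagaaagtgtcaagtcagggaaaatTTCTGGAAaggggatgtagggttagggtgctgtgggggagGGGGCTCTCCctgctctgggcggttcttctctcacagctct
Both windows hold 1 PU.1 core, at 30 bases before the start in C1qb and at 193 in C1qc, on opposite strands. A PU.1 core is found in 23.3% of 32851 mouse promoter windows of this length. The C1qb window has a MAF half-site at 131 (16.1% of windows hold one). The C1qc window has a C/EBP motif at 81 (36.9%) and a kappa-B motif at 41 (7.25%). A match of letters shows no binding.

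C2 and C4b supply the 2 pieces of the classical C3-cleaving enzyme. Neither differed between DMM and sham beyond the spread between mice. C2 ranged from -0.25 to 0.06 in DMM and -0.41 to 0.29 in sham at 1 week, and from -0.27 to 0.67 in DMM and 0.03 to 0.19 in sham at 6 weeks. Its SE was the smallest of the set, and DMM minus sham was -0.067 ± 0.20 at 1 week (95% interval -0.50 to 0.36) and -0.023 ± 0.20 at 6 weeks (-0.45 to 0.41; -0.053 without sham replicate 2).

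C4b had levels of 3.12, 3.48, 3.27 and 3.39 in DMM at 1 week, and 3.35, 3.19, 3.25 and 2.95 in sham. At 6 weeks it had 2.97, 2.73, 3.63 and 3.40 in DMM, and 3.06, 3.36, 3.95 and 3.51 in sham. DMM minus sham was 0.13 ± 0.22 at 1 week and -0.29 ± 0.22 at 6 weeks, with overlapping groups at both times (limma, adjusted p = 1 and 0.9995, n = 4 each). Leaving out 1 array moved the 1-week value to 0.049 (without sham replicate 4), 0.073 (DMM replicate 2) or 0.19 (DMM replicate 1). It moved the 6-week value to -0.13 (without sham replicate 3), -0.14 (DMM replicate 2) or -0.44 (DMM replicate 3), and array weights gave -0.55. The second probe, the one shared with C4a, gave 0.053 ± 0.37 at 6 weeks, the opposite sign. Its 6-week levels were 0.26, -0.20, 0.48 and 0.40 in DMM, and 0.11, -1.18, 1.065 and 0.73 in sham. The opposite sign thus rested on replicate 2 of sham. The probes had r = 0.441 over 16 arrays and 0.717 without replicate 2 of sham at 6 weeks, which was the lowest array for the second probe (-1.18). C4a has its own probe, and it gave 0.29 ± 0.27 at 1 week and -0.46 ± 0.27 at 6 weeks.

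C3 is the component on which all activation routes meet. Its main probe had levels of 5.77, 7.15, 6.60 and 6.36 in DMM at 1 week, and 6.52, 6.73, 6.53 and 7.06 in sham. The DMM range enclosed the whole sham range, and its ends were both the lowest and the highest level of the series for this probe. At 6 weeks the levels were 6.58, 6.59, 6.16 and 6.36 in DMM, and 6.24, 6.23, 6.45 and 6.50 in sham, so the groups were close together.

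For C3, DMM minus sham was -0.24 ± 0.24 at 1 week (95% interval -0.76 to 0.27) and 0.071 ± 0.24 at 6 weeks (-0.45 to 0.59; 0.028 without sham replicate 2). The second probe, whose sequence is given above, gave -0.23 ± 0.24 and 0.11 ± 0.24, and the probes had r = 0.792. At 6 weeks the second probe had levels of 5.52, 4.92, 5.14 and 5.31 in DMM, and 5.08, 4.61, 5.37 and 5.42 in sham. The positive sign of its 6-week difference rested on replicate 2 of sham. The lowest level of the second probe was in sham at 6 weeks (4.61, replicate 2) and its highest in sham at 1 week (5.85, replicate 4). The probes thus order the arrays differently at the ends. Leaving out 1 of the 2 extreme DMM arrays moved the 1-week value to -0.0095 (without replicate 1) or -0.47 (without replicate 2).

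Factor B (Cfb), the enzyme subunit of the alternative route, had levels of -0.36, -0.93, -0.17 and -0.08 in DMM at 1 week, and -0.49, -0.86, -0.28 and -0.38 in sham. At 6 weeks the DMM levels lay within 0.10 of each other, from -0.23 to -0.13. Sham at 6 weeks had -0.33, -2.79, 0.39 and -0.06, the widest spread of any gene and group in the set. DMM minus sham was 0.51 ± 0.49 at 6 weeks but -0.19 without sham replicate 2, and 0.12 ± 0.49 at 1 week. The second probe, printed above, was lowest on the same array (-4.59, not well above background there), and the probes had r = 0.907 over 16 arrays.

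The same sham array was lowest for the summed monocyte markers (4 of 4 genes past the filter), at 5.96 against at least 6.70 in the other groups. Cfb had r = 0.768 with the monocyte list over 16 arrays and 0.098 over 15. Cfb had r = 0.773 with 8 interferon-response genes over 16 arrays and 0.363 over 15. Both relations rested on 1 array. With the erythroid markers r was 0.668 over 16 arrays and 0.778 over 15, and with liver-cell markers, of which 3 of 5 passed the filter, it was -0.853 and -0.639. The part of these cells in the Cfb values was not tested. On 15 arrays Cfb had r = 0.659, 0.566 and 0.639 with C1qa, C1qb and C1qc.

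C3ar1 and C5ar1 are the receptors of the C3a and C5a fragments on myeloid cells. C3ar1 had levels of -1.87, -2.56, -2.69 and -2.78 in DMM at 1 week, and -2.54, -2.79, -2.88 and -2.57 in sham. The 6-week levels were -2.05, -2.67, -2.29 and -2.47 in DMM, and -1.97, -2.10, -2.40 and -2.53 in sham. The groups overlapped at both times, with replicate 1 of DMM at 1 week the highest of all 16 arrays. Its differences were 0.22 ± 0.22 at 1 week and -0.12 ± 0.22 at 6 weeks. Without DMM replicate 1, the high array, the 1-week value was 0.023, and without sham replicate 2 the 6-week value was -0.070.

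C5ar1 had levels of 0.54, 2.13, 1.28 and 1.29 in DMM at 1 week, and 1.51, 2.12, 1.58 and 1.97 in sham. In DMM 3 of the 4 joints lay below all sham joints and the fourth above them. At 6 weeks it had 1.10, 1.40, 0.59 and 0.98 in DMM, and 0.98, 0.79, 0.74 and 0.73 in sham. DMM minus sham was -0.48 ± 0.28 at 1 week (95% interval -1.07 to 0.11) and 0.21 ± 0.28 at 6 weeks (-0.38 to 0.80). The change in the DMM effect between the times, 0.69 ± 0.39 (95% interval -0.15 to 1.53, limma adjusted p = 1), was the largest of the 9 genes and it was 0.43 without DMM replicate 1 of the 1-week group and 0.96 without DMM replicate 2 of that group. The 1-week difference was -0.22 and -0.76 without the same arrays.

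**Figure D3:**
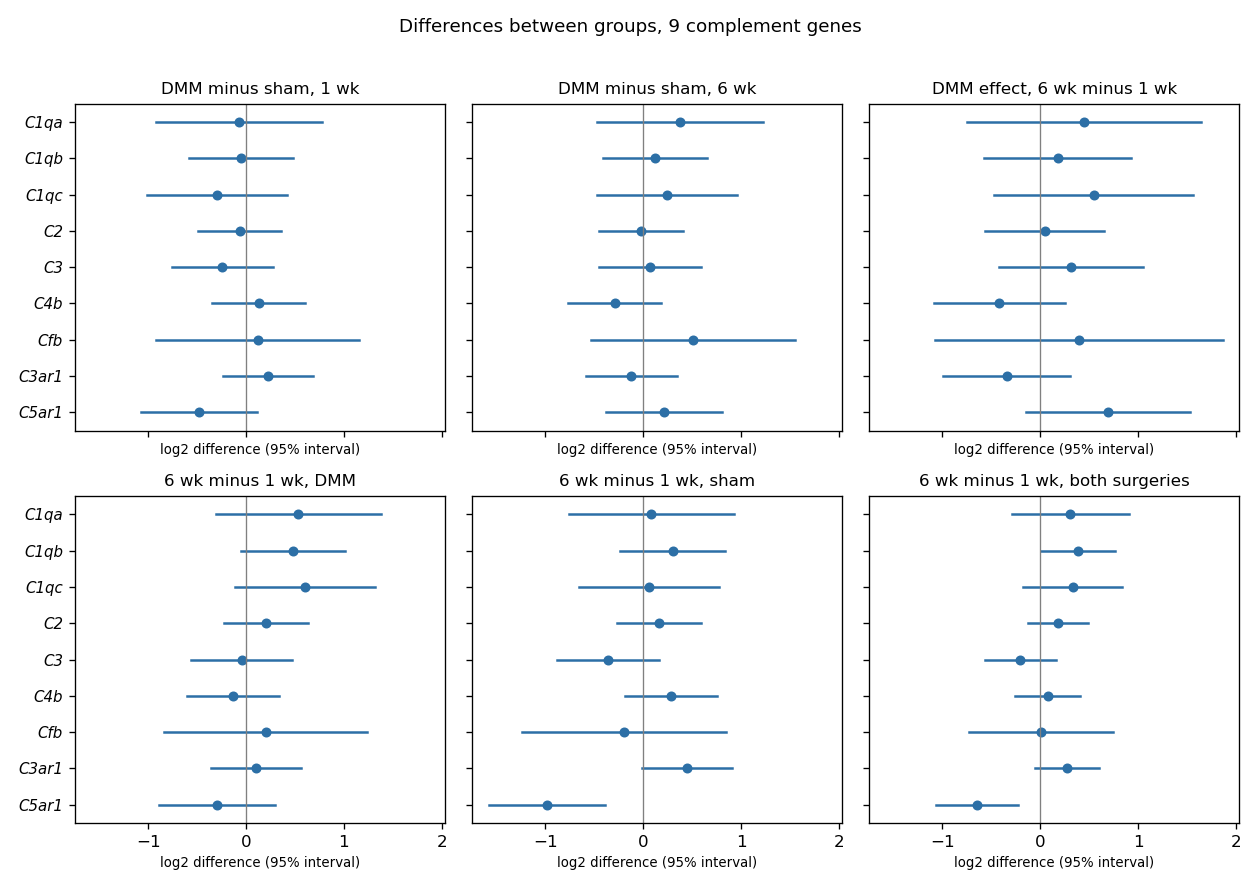
Log2 differences with 95% intervals of the 9 complement genes: top row DMM minus sham at 1 week, at 6 weeks, and the change in that effect between the times; bottom row 6 weeks minus 1 week after DMM, after sham, and over both. The intervals that exclude 0 belong to C5ar1 after sham, C5ar1 over both surgeries and C1qb over both surgeries.

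Set against all genes, none of the complement genes was called in DMM against sham. In limma, with p adjusted over 28250 genes, 0 of 9 passed 0.05 at 1 week, at 6 weeks or in the change between them, where 0% of all genes did. Before adjustment 0 of 9 had p under 0.05 in each, against 0.966%, 0.779% and 0.683% of all genes, and 0 of 9 had groups that did not overlap, against 1.10% of all genes at 1 week and 0.499% at 6 weeks. At 1 week 3 of 9 had a positive and 6 a negative difference, with a median of -0.067 (0.0032 over all genes, of which 50.8% were positive). At 6 weeks 6 were positive and 3 negative, with a median of 0.12 (-0.023 over all genes, 46.5% positive). The effect was higher at 6 weeks than at 1 week for 7 of 9, with a median of 0.31 (-0.0086 over all genes, 48.8% positive). These counts of sign are not of 9 independent genes, because the C1q chains varied together, as did C3 and C5ar1.

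The time after surgery was compared over both operations, 8 joints at 6 weeks with 8 at 1 week. Time after surgery and age cannot be told apart in this design. Here 247 of all genes were called (0.874%), and 0 of the 9 complement genes. None of the 9 had groups that did not overlap (0.658% of all genes). Before adjustment C5ar1 and C1qb, 2 of 9, had p under 0.05, against 15.8% of all genes.

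C5ar1 differed by -0.64 ± 0.20 on the log2 scale (95% interval -1.06 to -0.22, limma adjusted p = 0.113), with all 8 joints below the 1-week mean. Its adjusted p ranged from 0.00339 with array weights to 0.837 within slide 1 over the alternatives run, single arrays left out included. C1qb differed by 0.39 ± 0.18 (95% interval 0.013 to 0.77, limma adjusted p = 0.297), with all 8 joints above the 1-week mean of 1.90. The lowest 6-week joint, at 1.96, lay below the 1-week median of 2.00, and the lowest 1-week level was 1.05. C1qa and C1qc differed by 0.31 ± 0.28 and 0.33 ± 0.24. Without replicate 2 of DMM at 1 week these differences were 0.25 for C1qb, 0.10 for C1qa and 0.13 for C1qc. C3 differed by -0.20 ± 0.17, C3ar1 by 0.28 ± 0.15, C2 by 0.18 ± 0.14, C4b by 0.078 ± 0.16 and Cfb by 0.0037 ± 0.35. Without replicate 2 of sham at 6 weeks the value was 0.47 for C1qa and 0.35 for Cfb.

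The same time difference was then taken after each operation on its own, a split added after the values were seen. After DMM it was -0.30 ± 0.28 for C5ar1, with overlapping groups. After sham it was -0.99 ± 0.28 (95% interval -1.58 to -0.39, limma adjusted p = 0.585), and the 4 sham levels at 6 weeks (0.73 to 0.98) lay below all 4 at 1 week (1.51 to 2.12). The difference between these 2 time effects is the change in the DMM effect given above, and it did not pass the test.

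C1qb (0.30 ± 0.25), C3 (-0.36 ± 0.24) and C3ar1 (0.45 ± 0.22) also had sham groups that did not overlap between the times, so 4 of 9 did, against 5.33% of all genes. The second C3 probe had overlapping sham groups (-0.42 ± 0.24). Between the DMM groups 0 of 9 were free of overlap, against 5.23% of all genes. By the adjusted p 0 of 9 and 0% of all genes were called after either operation, and before adjustment 1 of 9 (C5ar1) after sham and 0 of 9 after DMM had p under 0.05, against 7.15% and 9.70% of all genes. Without replicate 2 of sham at 6 weeks the C5ar1 value after sham was -0.98.

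C5ar1 and C3 varied together between joints, with r = 0.842 (rho = 0.826) over 16 arrays and 0.788 without the 2 arrays farthest from the median of C3. Within slides r was 0.903 and 0.803, and after group means were removed it was 0.875. Of all genes, those closest to C3 were Gapt (r = 0.929), Ceacam2 (0.929), Ero1a (0.927) and Fmo5 (0.923), followed by a transcript without a gene symbol. Gapt encodes a membrane adaptor of blood cells, and Ero1a an enzyme of protein folding. On 15 arrays Hdc (0.938), which makes histamine, entered the 5 closest.

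A neutrophil list of 9 markers (Ltf, Ngp, Camp, S100a8, S100a9, Elane, Mpo, Cxcr2 and Mmp8, all past the filter) varied with both genes. Its mean had r = 0.879 (rho = 0.797) with C3 and 0.737 (rho = 0.735) with C5ar1, and 0.705 and 0.612 without the 2 arrays farthest from its median. Those were replicate 1 of DMM at 1 week, where all 9 markers were below their mean and the main C3 probe and C5ar1 had their lowest levels, and replicate 2, where all 9 were above it and both had their highest. Within slides r was 0.940 and 0.736 for C3, and 0.792 and 0.858 for C5ar1. The summed list ranged from 10.70 to 11.56 in DMM and 11.10 to 11.42 in sham at 1 week, and from 10.94 to 11.51 in DMM and 10.88 to 11.40 in sham at 6 weeks.

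Fat-cell markers (Adipoq, Plin1, Fabp4, Lep and Cidec, 5 of 5 past the filter) ran the other way. Their mean had r = -0.819 (rho = -0.871) with C5ar1 and -0.743 (rho = -0.782) with C3, and -0.805 and -0.758 without the 2 farthest arrays. Within slides r was -0.729 and -0.938 for C5ar1, and -0.865 and -0.770 for C3. Summed, they ranged from 3.75 to 5.80 in DMM and 3.77 to 4.48 in sham at 1 week, and from 4.59 to 5.02 in DMM and 3.59 to 5.68 in sham at 6 weeks. The sum and the mean order the arrays differently. Replicate 2 of sham at 6 weeks was lowest by the sum, and replicate 4 of sham at 1 week by the mean. The fat-cell list was not alone in this. Over 16 arrays, marrow stromal reticular cell markers had r = -0.688 with C3 and -0.626 with C5ar1. Chondrocyte markers had -0.449 and -0.672, and B-cell markers -0.487 and -0.650. The part of neutrophils, of marrow fat and of these other cells in the C3 and C5ar1 values was not tested.

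**Figure D4:**
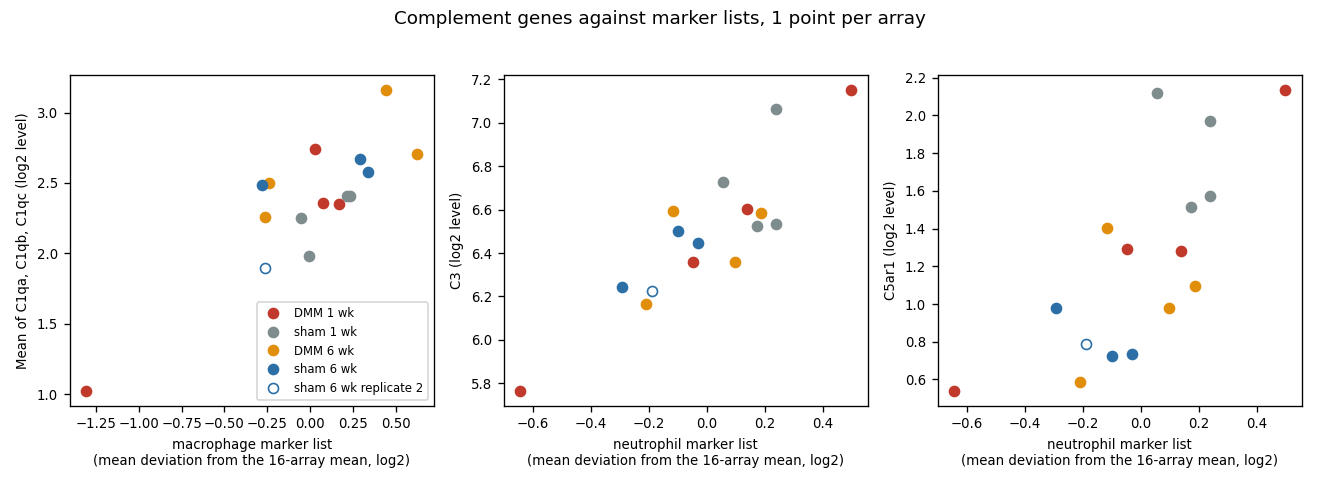
Left, the mean log2 level of C1qa, C1qb and C1qc against the mean of 15 macrophage markers; middle and right, the levels of C3 and C5ar1 against the mean of 9 neutrophil markers, each marker list as its deviation from its 16-array mean. Replicate 2 of DMM at 1 week is the point at -1.31 on the macrophage axis and 0.50 on the neutrophil axis, and replicate 1 the point at -0.64 on the neutrophil axis.

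The C3 and C5ar1 upstream windows, shown because these genes varied together, come from chr17:57228137-57228386 and chr7:16259339-16259588 (GRCm38.p6, minus strand), with the same motifs in capitals.
C3: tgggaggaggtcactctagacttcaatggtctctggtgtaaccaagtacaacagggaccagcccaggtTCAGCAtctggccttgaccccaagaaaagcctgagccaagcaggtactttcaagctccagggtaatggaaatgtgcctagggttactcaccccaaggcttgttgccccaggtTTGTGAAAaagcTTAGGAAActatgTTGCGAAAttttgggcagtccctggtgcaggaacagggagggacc
C5ar1: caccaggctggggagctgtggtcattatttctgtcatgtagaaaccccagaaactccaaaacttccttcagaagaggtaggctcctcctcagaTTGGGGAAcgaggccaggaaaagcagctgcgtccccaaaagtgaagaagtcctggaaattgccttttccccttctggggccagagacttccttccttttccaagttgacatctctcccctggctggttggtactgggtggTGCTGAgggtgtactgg
In C3 the C/EBP motif matched 4 times, at 70, 58 and 45 bases before the start, where the last matches on both strands. C5ar1 held 1 C/EBP match at 157. A C/EBP motif is found in 36.9% of windows. A MAF half-site lies at 182 in C3 and at 17 in C5ar1, and neither window holds a PU.1 core, GAS or kappa-B motif in these letters.

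C1q and the C3 and C5ar1 pair did not vary as 1 block. The mean of the C1q chains had r = -0.493 (rho = -0.291) with C3 and -0.525 (rho = -0.447) with C5ar1, and -0.315 and -0.357 without the 2 arrays farthest from the median of C1q. The receptors did not vary together either, with r = -0.637 between C3ar1 and C5ar1 over 16 arrays and -0.612 over 15. On replicate 2 of DMM at 1 week C1q was at its lowest and the main C3 probe and C5ar1 at their highest.

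Beyond the 9 genes, 49 other complement genes were listed, and 41 passed the filter. In DMM against sham 0 of 41 were called at 1 week, at 6 weeks or in the change between them. The medians were -0.020 at 1 week, 0.069 at 6 weeks and 0.13 for the change, against 0.0032, -0.023 and -0.0086 over all genes. With time over both operations 1 of 41 was called, against 0.874% of all genes, with a median of 0.13 (0.039 over all genes).

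The called gene was Cd59b, whose protein shields cells from the terminal pore. It stood at -1.01 ± 0.55 at 6 weeks and -2.07 ± 0.57 at 1 week after DMM, and at -1.22 ± 0.16 at 6 weeks and -2.09 ± 0.31 at 1 week after sham (SD, n = 4). It was higher at 6 weeks by 0.96 ± 0.21 (limma, adjusted p = 0.0472), while DMM and sham differed by 0.016 ± 0.30 at 1 week and 0.21 ± 0.30 at 6 weeks. The call was lost when any 1 of 12 arrays was left out, under quantile normalization, without scaling, without the dim-probe filter, within each slide and in the authors' deposited table. Alas2, an erythroid marker, was also higher at 6 weeks by 1.30 ± 0.27 (limma, adjusted p = 0.0434), and all 5 erythroid markers had positive time differences (median 1.22, against 0.039 over all genes). So did all 5 chondrocyte markers (median 1.68, with Chad called at limma adjusted p = 0.0443), all 5 B-cell markers (median 0.85, with Ms4a1 called at limma adjusted p = 0.0490) and all 4 muscle markers (median 0.56). All 7 osteoclast markers had negative ones (median -0.77, none called). The part of these cells in the Cd59b value was not tested. None of the other membrane regulators on the list, all 7 past the filter, was called, and Cd59a, the closest relative of Cd59b and named after its value was seen, differed by 0.57 ± 0.23 (adjusted p = 0.228).

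Among the initiators, 11 of 13 genes passed the filter. The difference of largest size belonged to Fcna, ficolin A of macrophages, whose DMM effect was higher by 1.37 ± 0.97 at 6 weeks than at 1 week (limma, adjusted p = 1). Fcna stood at -2.84 in replicate 2 of DMM at 1 week, where C1q was lowest too, against -0.30, 0.52 and 0.81 in the other DMM joints and -0.22 to 0.73 in sham. Without that array the change was 0.57. Colec12, a scavenger receptor with a collectin domain and the brightest initiator probe, differed by -0.093 ± 0.17 at 1 week and -0.18 ± 0.17 at 6 weeks.

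Cfd encodes factor D (adipsin), the enzyme that cleaves factor B and a product of fat cells. It had levels of 5.14, 2.38, 3.75 and 3.79 in DMM at 1 week, and 1.82, 1.18, 2.92 and 0.34 in sham. At 6 weeks it had 2.82, 2.04, 5.12 and 4.18 in DMM, and 4.04, 2.84, 6.41 and 5.46 in sham. DMM minus sham was 2.20 ± 0.83 at 1 week and -1.15 ± 0.83 at 6 weeks, with groups overlapping at both times, and the change in that effect was -3.35 ± 1.18 (limma, adjusted p = 1). The part of the fat-cell markers given above in the Cfd values was not tested. Cfp (properdin), which steadies the alternative enzyme, differed by -0.069 ± 0.19 and 0.20 ± 0.19.

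The terminal components C9 and C7 gave no call: C9, a dim probe, differed by 0.58 ± 0.17 with time (limma, adjusted p = 0.0944), and C7 by 0.37 ± 0.18 between DMM and sham at 1 week (adjusted p = 1). Of the soluble regulators, Vtn (dim) differed by 0.60 ± 0.26 with time (limma, adjusted p = 0.263). Cr1l, a membrane regulator of C3, differed by 0.13 ± 0.18 with time.

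Vsig4, the macrophage receptor of C3b, was well above background on 0 of 4 arrays of DMM at 1 week and on 4 of 4 of sham. Vsig4 passed the filter on dim probes only through that sham group, so this contrast is partly set by the filter. Its levels were -6.73, -6.95, -5.96 and -4.66 in DMM, and -4.96, -4.85, -5.43 and -4.45 in sham, so the groups overlapped, with DMM replicate 4 above 3 of the 4 sham arrays. The measured means were -6.08 in DMM and -4.92 in sham (limma, adjusted p = 1). No fold is read from them, because no DMM array had the probe well above background. The difference of these measured signals, which is no estimate of a change in RNA, depended on the processing. It was -1.15 in the fit as reported, -0.16 with normexp background, -0.27 with array weights and -0.58 in the authors' deposited table. Within the slides it was -1.94 and -0.37. At 6 weeks Vsig4 was well above background on 0 of 4 DMM and 1 of 4 sham arrays, and no fold is given. Cd93, a receptor once named for C1q binding, differed by 0.16 ± 0.17 at 1 week and -0.084 ± 0.17 at 6 weeks.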

How the data were processed

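Values were Agilent 1-colour spot intensities that the authors deposited as scanner output, background-subtracted and detrended by Feature Extraction 10.7.3.1, per the file headers, and not normalized between arrays. The authors' deposited value table, named with limma 3.20.9 per the submitters' processing notes, was read as log2 from its relation to the scanner values (r between 0.989 and 0.994 per array, array medians between 7.24 and 7.34), while its background correction and normalization were not given in the sources used here. Array number limits the precision, with 4 mice per group, 1 array each, on 2 slides that each held 2 arrays of every group.

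Intensities were put on a log2 scale and each array's 75th percentile was subtracted. Control spots and spots marked as outliers were left out, and repeated spots were averaged. Probes well above background on at least 4 of 16 arrays were kept (43268 of 56605), and each gene was read from its brightest probe, giving 28250 genes. All 4 groups entered 1 fit in limma 3.58.1 (R 4.3.3) with 12 residual degrees of freedom, and p-values were adjusted by Benjamini-Hochberg over all genes at 0.05. The fit was also run on simulated data with independent errors per gene. Those lack the variation that genes share on these arrays, and no result given here rests on them. Comparisons were DMM against sham at each time, the difference between these, and 6 weeks against 1 week over both operations. The 6-week against 1-week comparisons within each operation were added after the data were seen.

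The members, the other complement genes and the marker lists were chosen with earlier results of these data known. Named beyond the members are, per list of complement genes, those past the threshold, the one with the largest difference and the one with the brightest probe, and the 5 genes whose levels were closest to mean C1q and to C3. A gene that this rule names among the soluble regulators is not reported here. Gene names in the files were updated through RefSeq accessions and symbols. A total of 14 relations with marker lists or between members were taken for closer description. In addition r was computed for all pairs of members and for every member with every marker list. The relations of Cfb with marker lists come from these, and those printed are a selection. Promoter sequences come from RefSeq on GRCm38.p6 and were matched for 5 of 9 members, and probe positions are those of the array files on mm9. Alternatives were another background correction, quantile or no scaling, the deposited value table, other filters and probe rules, kept outlier spots, slide as a block or each slide alone, array weights, fits of only the compared groups, and leaving out each array. The 5 motifs were searched on both strands.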

Additional observations from a re-analysis of the deposited data

Results flagged for a closer look

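Of 52 groups of 4 arrays checked with Dixon's test at its 95% critical value, 2 held an array far from the other 3, and chance flags about 1 in 20. Both concern C1qa and a sham array. In sham at 6 weeks replicate 2 had a level of 0.64, whereas the others had 1.90 to 1.99, and this is the array with the lowest overall signal. In sham at 1 week replicate 2 had 1.19, whereas the others had 1.63 to 1.69.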

How the results depend on the processing

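No complement member passed the threshold in the fit as reported, and over the alternatives C5ar1 and C4b passed it with array weights alone (C5ar1 over both operations and after sham, C4b after sham at 0.64). Differences of C3, C4b, C3ar1 and C5ar1 at 1 week kept their sign in all alternatives but the -0.0049 of C3ar1 within slide 2, and C5ar1 kept its sign in every comparison. The changes of sign listed here concern differences that did not pass the test in the fit as reported, and the cause was not tested. No paired analysis was possible because nothing in the sample labels ties any DMM joint to a sham joint. Without scaling, the median of all genes itself moved to -0.15 over both operations, -0.11 after DMM, -0.20 after sham and 0.10 for the change in the DMM effect. Array weights ran from 0.076 for replicate 2 of sham at 6 weeks to 9.12 for replicate 3. With these weights DMM minus sham was 0.17 for C1qa, 0.081 for C1qb and 0.018 for C2 at 1 week, and -0.043 for C1qa, -0.011 for C1qc, -0.046 for C3 and -0.46 for Cfb at 6 weeks. The change in the DMM effect was then -0.33 for Fcna, -0.22 for C1qa, -0.13 for C2 and -0.80 for Cfb, and Cfb differed with time by -0.022 after DMM and 0.78 after sham. Within slide 2, DMM minus sham was 0.072 for C1qa, 0.043 for C1qb and 0.19 for C2 at 1 week. There it was -0.30 for C1qa, -0.062 for C1qb, -0.091 for C1qc, -0.21 for C3, -0.34 for Cfb and 0.085 for C3ar1 at 6 weeks. The change in the DMM effect was there -0.73 for Fcna, -0.37 for C1qa, -0.11 for C1qb, -0.056 for C1qc, -0.46 for C2, -0.54 for Cfb and 0.090 for C3ar1. With time it gave -0.11 for C1qa, -0.073 for C2, 0.19 for C4b and -0.044 for Cfb after DMM, and 0.50 for Cfb after sham. Within slide 1, DMM minus sham was 0.22 for C2 at 6 weeks. The time difference there was -0.25 for C4b and -0.22 for Cfb over both operations, 0.13 for C3 and -0.14 for C3ar1 after DMM, and -0.097 for C1qa, -0.027 for C1qc, -0.066 for C2 and -0.057 for C4b after sham. Without scaling, DMM minus sham was 0.032 for C2 at 6 weeks, and the time difference was -0.0094 for C2, -0.11 for C4b and -0.19 for Cfb over both operations, -0.031 for C3ar1 after DMM, and -0.16 for C1qa, -0.19 for C1qc and -0.088 for C2 after sham. In the authors' deposited table C3 had -0.17 for DMM minus sham at 6 weeks, C2 had -0.084 for the change in the DMM effect and C4b -0.0027 with time. Quantile normalization gave -0.0076 for C3 at 6 weeks and -0.024 for Cfb with time, and the mean of all probes 0.041 for Cfb after sham. Leaving out single arrays, DMM minus sham at 1 week ranged from -0.30 to 0.34 for C1qa, -0.24 to 0.22 for C1qb, -0.50 to 0.10 for C1qc, -0.19 to 0.042 for C2 and -0.0015 to 0.30 for Cfb. At 6 weeks it ranged from -0.022 to 0.26 for C1qb, -0.21 to 0.099 for C2 and -0.19 to 0.87 for Cfb. The change in the DMM effect ranged from -0.096 to 0.37 for C1qb, -0.14 to 0.17 for C2 and -0.31 to 0.76 for Cfb. The time difference ranged from -0.0023 to 0.15 for C4b and -0.18 to 0.35 for Cfb over both operations, from -0.28 to 0.18 for C3, -0.28 to 0.021 for C4b and -0.0045 to 0.30 for C3ar1 after DMM, and from -0.038 to 0.41 for C1qa, -0.052 to 0.23 for C1qc and -0.56 to 0.51 for Cfb after sham. The time call of Cd59b was lost at 0.95 with quantile normalization, 0.77 without scaling, 0.88 in the deposited table, 0.96 without the dim-probe filter, 1.34 within slide 1 and 0.59 within slide 2. Over all genes, the number called with time over both operations was 427 with normexp background, 451 with probes well above background on all 16 arrays, 645 with slide as a block, 5884 with array weights, and 0 without scaling, without the dim-probe filter, within slide 1 or within slide 2. Leaving out single arrays it ranged from 0 to 1502, the highest without replicate 2 of sham at 6 weeks. With array weights 1 gene was called in DMM against sham at 6 weeks, 2 in the change in that effect, 963 with time after DMM and 3305 after sham. Leaving out single arrays, the calls ranged from 0 to 1 in DMM against sham at 6 weeks, 0 to 27 after DMM and 0 to 1 after sham.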

Other observations

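The remaining complement receptors were read for values only, and the genes given here were chosen after their values were seen. Itgam, 1 chain of the receptor that takes up particles coated with C3 fragments and a marker of myeloid cells, differed by -0.78 ± 0.23 between 6 weeks and 1 week (limma, adjusted p = 0.100). Its partner chain Itgb2 differed by -0.20 ± 0.22 (adjusted p = 0.773). Cr2, the C3d receptor of B cells, differed by 0.63 ± 0.18 with time (adjusted p = 0.100). Summed B-cell markers (5 of 5 past the filter) ranged from 4.53 to 5.04 in DMM and 4.67 to 5.30 in sham at 6 weeks, against 3.28 to 5.25 in DMM and 2.98 to 4.42 in sham at 1 week, and their part in the Cr2 value was not tested. C5ar2, the other C5a receptor, differed by -0.09 ± 0.14 with time, next to -0.64 ± 0.20 for C5ar1. Among soluble regulators Clu, clusterin, differed by 0.27 ± 0.12 with time (adjusted p = 0.292) and Serping1, the C1 inhibitor, by 0.11 ± 0.19 (adjusted p = 0.870).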
